A study of Mus musculus with 2 samples.

Results

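The genes described here code for the DNA topoisomerases and for the enzymes that remove trapped topoisomerases from DNA, measured in primary mouse neonatal ventricular cardiomyocytes (mNVCM) that were exposed to doxorubicin (Dox) with or without prior incubation with medium conditioned by human amniotic fluid-derived stem cells (hAFS-CM). They are 8 of the 18193 genes on the arrays and were taken by name (*Top1*, *Top1mt*, *Top2a*, *Top2b*, *Top3a*, *Top3b*, *Tdp1* and *Tdp2*), a rule that itself reads no expression value, through every probe set that the annotation of the array assigns to exactly 1 of these genes. This gave 16 probe sets, and each of the 8 genes had at least 1. A probe set is a group of short array probes against the same transcript.

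There were 2 Affymetrix mouse arrays. For hAFS-CM + Dox, cells from 2-day-old C57BL6/J mice were kept in medium with 0.5% fetal bovine serum for 1 h, given the conditioned medium for 3 h and then 1 μM Dox, for which the label states 6 h. For Dox, cells of the same strain and age had the same low-serum hour and 1 μM Dox without the conditioned medium, and here the label states 21 h. The methods of the study place the measurement of gene expression at 6 h of Dox and state that the conditioned medium was collected from hypoxic cells. If the hours in the labels hold, the conditioned medium and the time in Dox cannot be told apart. No array of cells without Dox was analysed here, so no value below gives the response to Dox itself. The sources do not say how many hearts gave the cells of an array.

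Topoisomerases relieve the twist of DNA by cutting it, passing strands and sealing it again, and for a moment the enzyme is bound to the cut end through a tyrosine. Type I enzymes cut a single strand and type II enzymes cut both strands. Dox and other anthracyclines hold the type II enzymes in the bound state, which leaves protein-linked breaks in DNA, and TOP2B is the type II enzyme that persists in cardiomyocytes after they stop dividing. TDP1 and TDP2 hydrolyse the bond between the tyrosine and the DNA end, TDP1 mainly for type I and TDP2 mainly for type II enzymes.

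The values were deposited as log2 expression after RMA and ranged between 2.37 and 14.99 for hAFS-CM + Dox and between 2.39 and 15.05 for Dox, with a median over both arrays of 5.10. Differences are given as a log2 ratio, hAFS-CM + Dox over Dox, and each gene is represented by its brightest probe set, taken as that with the highest mean over the arrays. Each condition is a single array, so differences could not be tested and none carries an SD between replicates or a p-value; the precision is limited by this number. The only spread that these arrays give is between probe sets of the same gene, whose log2 ratios had a pooled SD of 0.22 over 9010 genes with 2 or more probe sets. This SD holds no variation between cultures. Of the cardiomyocyte markers, 14 of 14 read at or above the median of all values. So did 9 of 9 measured fibroblast, 8 of 8 endothelial, 6 of 7 smooth muscle and 7 of 8 macrophage markers. Of 3 measured erythroid markers, 0 did. Among all genes, each at its brightest probe set, 12238 of 18193 did as well. These counts alone therefore do not show which cell types were in the culture. In such bulk RNA, fewer cells of a type and less RNA per cell cannot be told apart.

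None of the 8 genes differed by 2-fold or more between the arrays, the threshold that the study used, where 0.72% of all genes did, 0.506% being higher and 0.214% lower. Both enzymes that release trapped topoisomerases, *Tdp2* and *Tdp1*, were higher on the hAFS-CM + Dox array, with log2 ratios of 0.62 and 0.41. The 6 topoisomerases lay closer to 0, with a median log2 ratio of -0.09 and a range from -0.24 for *Top1* to 0.19 for *Top3b*. By the SD between probe sets or more, 2 of the 8 genes were higher, against 16.4% of all genes, and 1 was lower, against 14.4%. The median log2 ratio was 0.01 over the 8 genes and also 0.01 over all genes.

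**Figure D1:**
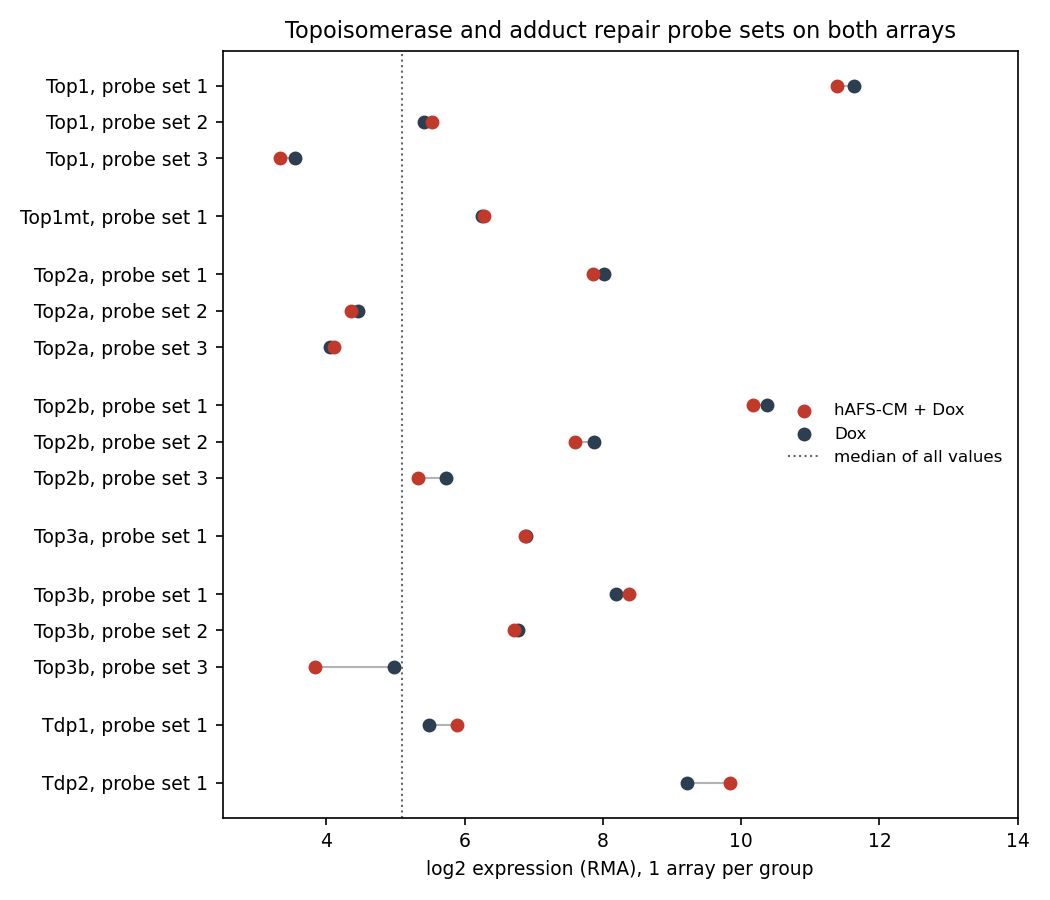
Log2 expression (RMA, horizontal axis) of the 16 probe sets of the topoisomerases, *Tdp1* and *Tdp2* on the hAFS-CM + Dox array (red) and the Dox array (dark), 1 array per group, with probe sets of a gene ordered by their mean. A dotted line marks the median over all values, 5.10. The red point lies to the right for *Tdp1* and *Tdp2* and to the left at all 3 probe sets of *Top2b*; levels of different probe sets are not comparable.

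*Tdp2*, which codes for the enzyme that frees DNA 5′ ends from trapped type II topoisomerases, read 9.83 with hAFS-CM + Dox and 9.22 with Dox on the log2 scale. The log2 ratio of 0.62, or 1.53-fold, was the largest of the 8 genes in either direction. It ranked 369 from the top among the 18193 genes, and 2.02% of genes had a higher ratio. *Tdp2* was also the only one of the 8 genes past 1.5-fold, a threshold that 2.32% of all genes passed upwards and 1.52% downwards. It has a single probe set here, 1448706_at, so no other probe set bears on the value.

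*Tdp1*, which codes for the enzyme that frees DNA 3′ ends from trapped TOP1, had log2 values of 5.89 with hAFS-CM + Dox and 5.48 with Dox, both close to the median of all values. Its log2 ratio was 0.41, or 1.33-fold, with 5.68% of genes at a higher ratio, and it too rests on a single probe set, 1426492_at. Both repair enzymes were higher on the hAFS-CM + Dox array by an amount past the SD between probe sets, from 1 measurement each. Of all genes, 16.4% were higher by the SD or more.

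*Top2b*, the type II topoisomerase of non-dividing cells and the form through which Dox is known to damage cardiomyocytes, was the only one of the 8 genes with several probe sets that all lay on the same side of 0. Its brightest probe set read 10.17 with hAFS-CM + Dox and 10.37 with Dox, a log2 ratio of -0.20. The second read 7.60 with hAFS-CM + Dox and 7.86 with Dox (-0.27). The third read 5.33 with hAFS-CM + Dox and 5.73 with Dox (-0.40). All 3 were lower on the hAFS-CM + Dox array, the first by less than the SD between probe sets and the others by more. Among the 2366 genes with exactly 3 probe sets, all 3 were lower in 17.7%, so this pattern was common on these arrays.

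*Top2a*, the type II topoisomerase of dividing cells, differed less. Its most abundant probe set read 7.86 with hAFS-CM + Dox and 8.02 with Dox, a log2 ratio of -0.16, which is within the SD between probe sets. The other probe sets lay below the median of all values, with 4.35 for hAFS-CM + Dox and 4.46 for Dox (-0.11) at the second and 4.10 for hAFS-CM + Dox and 4.05 for Dox (0.06) at the third. They did not share a direction.

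Many genes that peak in the same phases of the cell cycle as *Top2a* were lower on the hAFS-CM + Dox array. Of 24 measured proliferation markers, 10 were lower and 1 was higher by the SD between probe sets or more, against 14.4% and 16.4% of all genes. The higher one was *Prc1*, with 0.43 (0.01 at its other probe set). The median log2 ratio of the 24 markers was -0.15, with 21 below 0 and 3 above. None passed 2-fold. *Aurkb*, a mitotic kinase, read 5.59 with hAFS-CM + Dox and 6.44 with Dox (-0.85). *Cenpf*, a kinetochore protein, had -0.81 (0.02 at its highest of 3 probe sets), *Kif11*, a spindle motor, -0.45, and *Birc5*, the survivin gene, -0.43. *Cenpf* read 4.89 with hAFS-CM + Dox and 5.70 with Dox, and *Kif11* 4.88 with hAFS-CM + Dox and 5.33 with Dox. Both reached the median of all values (5.10) on the Dox array only and were named through that array. The part of the dividing cells of other types in these values was not tested; the markers of those types are given further on.

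The sequences before the start sites of both type II genes are shown because the enzymes are the target of Dox and because their promoters differ in the CCAAT box, the site of the factor NF-Y that is common in genes of the cell cycle. They are the 250 bases upstream of the start from RefSeq (GRCm38.p6), *Top2a* at chr11:99024190-99024439 on the minus strand and *Top2b* at chr14:16364956-16365205 on the plus strand, written 5′ to 3′ along the gene with CCAAT, or ATTGG for the other strand, in capitals.
Top2a: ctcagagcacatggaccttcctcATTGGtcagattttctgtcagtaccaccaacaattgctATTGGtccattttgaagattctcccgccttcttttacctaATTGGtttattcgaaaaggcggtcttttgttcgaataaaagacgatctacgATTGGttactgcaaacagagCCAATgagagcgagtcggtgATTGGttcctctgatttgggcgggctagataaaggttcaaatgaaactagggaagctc
Top2b: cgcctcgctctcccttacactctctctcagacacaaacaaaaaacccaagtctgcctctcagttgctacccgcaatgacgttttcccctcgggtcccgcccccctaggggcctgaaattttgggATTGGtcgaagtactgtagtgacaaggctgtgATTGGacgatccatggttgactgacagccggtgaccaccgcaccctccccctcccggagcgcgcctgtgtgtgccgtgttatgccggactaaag
The *Top2a* stretch holds 6 CCAAT boxes, 1 as CCAAT and 5 as ATTGG, and the *Top2b* stretch holds 2, both as ATTGG. Of 32851 promoter entries of the same length, 33.8% held at least 1, 10.1% at least 2 and 0.0578% at least 6. The letters TTTGAA, a form of the cell cycle homology region, were found on either strand at 2 places before *Top2a* and at 0 before *Top2b*. Of all entries, 16% held them at least once and 1.81% at 2 places or more. A match describes letters in this window and not a bound factor.

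*Tdp1* is the only repair enzyme of the pair with an entry in the promoter table, and its upstream stretch is shown because its transcript was among the higher ones. It lies at chr12:99884268-99884517 on the plus strand, in the same build and with the same use of capitals, of which it has none.
Tdp1: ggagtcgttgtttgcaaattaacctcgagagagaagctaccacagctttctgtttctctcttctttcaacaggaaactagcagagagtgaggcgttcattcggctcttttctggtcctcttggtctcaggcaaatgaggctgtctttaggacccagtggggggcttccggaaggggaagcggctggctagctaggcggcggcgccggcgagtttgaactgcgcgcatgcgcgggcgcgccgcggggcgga
It holds 0 CCAAT boxes, 1 TTTGAA and 1 GC box (GGGCGG on either strand, in 32.7% of all entries), the site of Sp1-type factors. The NF-κB consensus, searched because the study followed NF-κB, was found in 3.9% of all entries and, among the 5 genes with an entry (*Top1*, *Top2a*, *Top2b*, *Top3b* and *Tdp1*), at 1 place before *Top3b*.

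**Figure D2:**
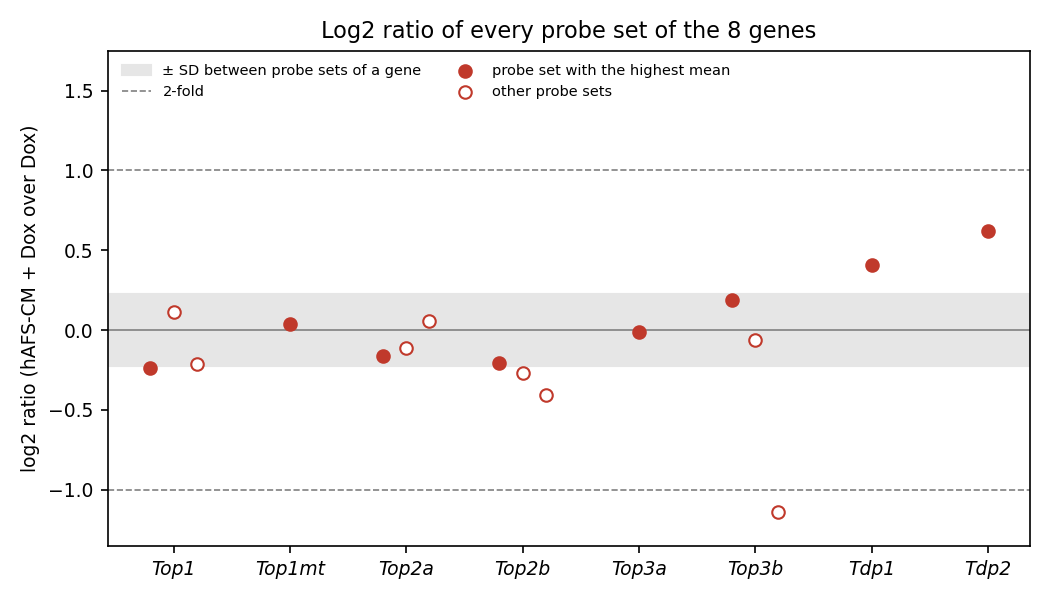
Log2 ratio (hAFS-CM + Dox over Dox, vertical axis) of every probe set of the 8 genes, with the brightest probe set filled. The grey band is the pooled SD of log2 ratios between probe sets of a gene (0.22) and dashed lines mark 2-fold. *Tdp1* and *Tdp2* lie above the band, the 3 points of *Top2b* lie below 0, and the probe sets of *Top3b* spread from 0.19 to -1.14.

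*Top1*, the nuclear type I enzyme that relaxes DNA ahead of transcription and replication, had the lowest ratio of the 8 genes at its most abundant probe set. It read 11.39 with hAFS-CM + Dox and 11.63 with Dox, a log2 ratio of -0.24, slightly past the SD between probe sets, and 13.2% of genes had a lower ratio. The second probe set read 5.53 with hAFS-CM + Dox and 5.41 with Dox (0.11), so the direction was not shared. The third read 3.33 with hAFS-CM + Dox and 3.54 with Dox (-0.21), below the 25th percentile of all values (3.80) on both arrays, and may not exceed background. *Top1mt*, the paralogue that works on mitochondrial DNA, read 6.28 with hAFS-CM + Dox and 6.25 with Dox, a log2 ratio of 0.04 from its only probe set.

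*Top3a*, which with the helicase BLM resolves crossed DNA strands in the nucleus and also works in mitochondria, had nearly the same value on both arrays. It read 6.87 with hAFS-CM + Dox and 6.89 with Dox, a log2 ratio of -0.01. *Top3b*, whose product also acts on RNA together with TDRD3, gave values that depended on the probe set. The brightest, 1456009_x_at, read 8.38 with hAFS-CM + Dox and 8.19 with Dox (0.19). The second, 1448173_a_at, read 6.72 with hAFS-CM + Dox and 6.78 with Dox (-0.06). The third, 1438387_x_at, read 3.84 with hAFS-CM + Dox and 4.98 with Dox (-1.14), and was the only one of the 16 probe sets past 2-fold, as were, in this direction, 0.269% of all probe sets with 1 gene. Both of its values lay below the median of all values. The suffix _x_at marks probe sets in which some probes also match other sequences. The ratios of *Top3b* spanned 1.33, and a span of 1 or more was seen in 1.78% of genes with 3 probe sets, so no direction is given for this gene.

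**Figure D3:**
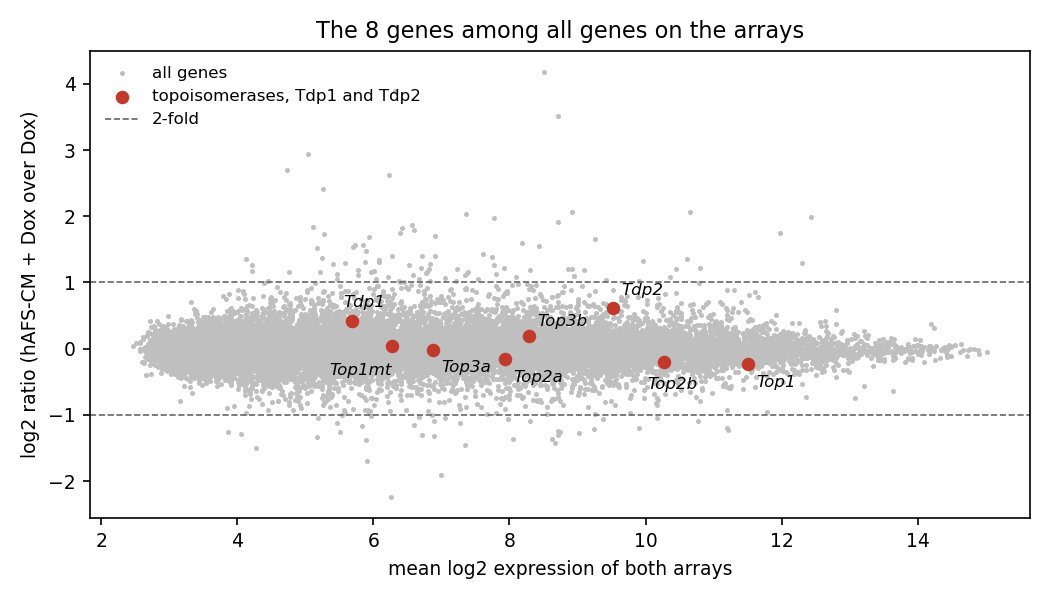
Log2 ratio (hAFS-CM + Dox over Dox, vertical axis) of each of 18193 genes against its mean log2 expression on both arrays (horizontal axis), at its brightest probe set, with the 8 genes in red. Dashed lines mark 2-fold. All 8 genes lie between the lines, *Tdp2* highest at 0.62 and *Top1* lowest at -0.24.

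The genes that work beside these enzymes were described through lists chosen by function, and none of their members passed 2-fold. Their counts by the SD between probe sets are to be read against 16.4% of all genes higher and 14.4% lower by as much. A trapped topoisomerase is first remodelled, tagged with SUMO or ubiquitin or degraded, so that TDP1 and TDP2 can reach the bond. Of 14 measured genes for these steps, 1 was higher (7.14%) and 0 were lower by the SD between probe sets or more, both below the shares over all genes (median log2 ratio 0.01). The gene past it was *Zfp451*, the SUMO ligase also called ZATT that opens trapped type II topoisomerases for TDP2. It read 7.68 with hAFS-CM + Dox and 7.32 with Dox (0.36), and its 5 probe sets were all higher, from 0.18 to 0.43, as in 8.42% of the 463 genes with 5 probe sets. *Rnf4*, a ubiquitin ligase for SUMO-tagged proteins, had 0.22 (-0.04 at its other probe set), *Ddb1*, an adaptor of CUL4 ligases, 0.14 and *Cul3*, a ubiquitin ligase scaffold, -0.15 (up to 0.08 among its 5 probe sets).

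Nucleases can cut off a trapped topoisomerase together with a piece of DNA. Of 13 measured genes for such end processing, nucleases and their partners, 3 were higher (23.1%, against 16.4% of all genes) and 1 was lower (7.69%, against 14.4%) by the SD between probe sets or more (median 0.07). With 13 genes these shares are near those of all genes. *Dna2*, a nuclease and helicase, read 5.40 with hAFS-CM + Dox and 4.85 with Dox (0.55, but 0.07 at the lowest of its 3 probe sets). Its value with Dox lay below the median of all values, so it was named through the hAFS-CM + Dox array only. *Mus81*, a structure-specific nuclease subunit, had 0.33 (0.16 at its other probe set), and *Rad50*, of the MRE11 complex that trims protein-bound ends, 0.29 (-0.09 at its other probe set). *Nbn*, the third subunit of that complex, was lower with -0.26.

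The break that is left after TDP1 or TDP2 is sealed by single-strand break repair or by end joining. Of 10 measured genes of single-strand break repair, 0 were higher, against 16.4% of all genes, and 2 were lower (20%, against 14.4%) by the SD between probe sets or more (median -0.17). They were *Parp1*, the sensor of nicked DNA, with -0.29 (up to 0.13 among its 4 probe sets) and *Lig1*, a DNA ligase of replication and repair, with -0.28. *Parg*, which removes poly(ADP-ribose), had 0.21 and *Polb*, a repair polymerase, -0.20 (up to 0.01 among its 4 probe sets). Of 7 measured genes of end joining, 1 was higher and 1 was lower (median -0.07), 14.3% each way and close to all genes. They were *Paxx*, a scaffold of the ligation step, with 0.26 and *Prkdc*, the DNA-dependent protein kinase, with -0.31. *Xrcc5*, the Ku80 gene, had -0.18 and *Nhej1* -0.07.

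Among 8 partners of TOP3A and TOP3B, 1 was higher by the SD or more (12.5%, against 16.4% of all genes) and 0 were lower (median -0.03). The partner past it was *Rmi2*, with 0.30, whose values of 5.00 with hAFS-CM + Dox and 4.70 with Dox lay below the median of all values; it was named after its value was seen. *Rmi1* had -0.09 (up to 0.28 among its 5 probe sets), *Fxr1* -0.08 (from -0.22 to 0.03 among 4), *Tdrd3* -0.05 (up to 0.15 among 3) and *Fmr1* 0.05 (down to -0.07 among 3), so none of these genes had a direction that its probe sets shared. Of 16 genes that copy, transcribe or maintain mitochondrial DNA, the substrate of TOP1MT, 2 were higher (12.5%) and 1 was lower (6.25%), both below the shares over all genes (median 0.02). *Rnaseh1*, which removes RNA from hybrids with DNA, had 0.42 and *Twnk*, the mitochondrial helicase, 0.29, whereas *Mterf2* had -0.31 and *Tefm*, a transcription elongation factor, -0.22.

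Type II topoisomerases shape chromosomes together with condensin, cohesin and CTCF. Of 20 measured genes for chromosome structure and chromatin, 1 was higher (5%, against 16.4% of all genes) and 4 were lower (20%, near the 14.4% of all genes) by the SD between probe sets or more (median -0.04). Of those named by size, the condensin II subunit *Ncapd3* had -0.41 (0.42 at the highest of its 3 probe sets), the condensin I subunit *Ncaph* -0.41 (-0.52 at its other probe set) and the condensin II subunit *Ncapg2* -0.35. The remaining lower gene was *Ctcf*, with -0.30 (-0.47 at its other probe set), and it was named after its value was seen. *Smc1a*, of cohesin, was higher with 0.33 (-0.05 at the lowest of 3 probe sets).

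**Figure D4:**
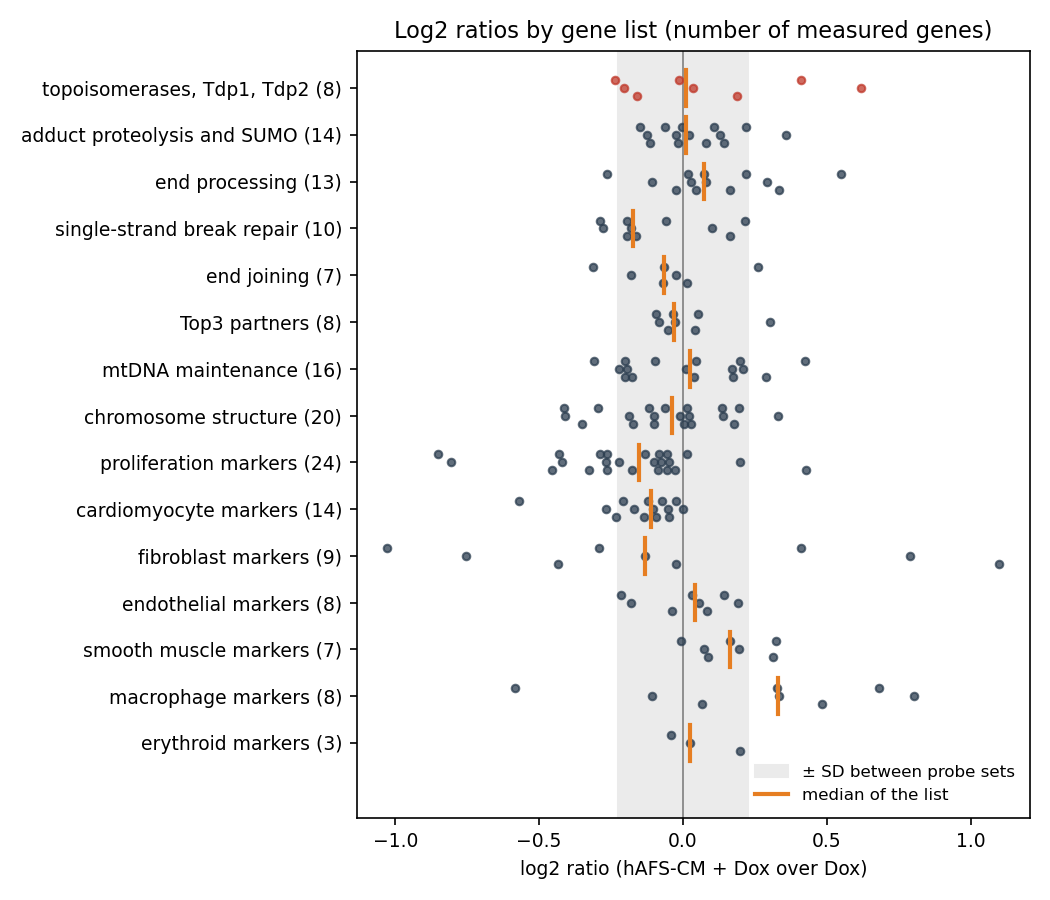
Log2 ratio (hAFS-CM + Dox over Dox, horizontal axis) of the measured genes of each list, 1 point per gene, with the median of each list in orange and the SD between probe sets (0.22) as a grey band. The topoisomerases with *Tdp1* and *Tdp2* are in red and have a median of 0.01; proliferation markers have a median of -0.15 and macrophage markers of 0.33.

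Markers of cell types differed between the arrays to different extents, again beside 16.4% of all genes higher and 14.4% lower by the SD or more. The 14 cardiomyocyte markers had a median log2 ratio of -0.11, with 0 higher and 3 lower (21.4%) by the SD or more, and *Pln*, the phospholamban gene, was lowest at -0.57. Their median level was 14.38 with hAFS-CM + Dox and 14.48 with Dox, near the highest value of each array (14.99 and 15.05). Whether differences are read in full at such levels was not tested. The 9 fibroblast markers had a median of -0.13, with 3 higher (33.3%) and 4 lower (44.4%), from -1.03 for *Tcf21* (0.18 at its other probe set) to 1.10 for *Lum*, the lumican gene. The 8 macrophage markers had a median of 0.33, with 5 higher (62.5%) and 1 lower (12.5%). The highest were *Cd14*, an endotoxin receptor, at 0.80 and *Fcgr3*, an Fc receptor, at 0.68. The lower one was *Itgam*, at -0.58 with both values below the median of all values. *Lyz2*, the marker with the highest signal of this list, had -0.11. *Ptprc* had 0.48 (-0.09 at its other probe set) and *Csf1r* 0.33 (-0.14 at the lowest of 3). The medians of the 8 endothelial, 7 smooth muscle and 3 erythroid markers were 0.04, 0.16 and 0.02. The part of these shifts in the values of *Tdp1*, *Tdp2* and the topoisomerases was not tested.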

How the data were processed

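Total RNA of mNVCM was hybridised to 1 Affymetrix mouse array for hAFS-CM + Dox and 1 for Dox. The authors ran RMA with quantile normalization, which gives a log2 expression for every probe set, and these deposited log2 values were analysed without further scaling. Their log2 scale was inferred from their range, with software version and probe set definitions not given in the sources used here. RMA pulls both arrays to the same distribution and compresses differences of low signals. Of 45101 probe sets, 64 were controls and were left out of the genes. Apart from controls, 34945 carried 1 gene. Several genes were carried by 932 and none by 9211, counts that still include some of the controls. Symbols were updated by Entrez ID with a RefSeq table of GRCm38.p6, which matched 34741 probe sets. Groups came from the labels.

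Log2 ratios and counts past 2-fold were computed in pandas 2.3.3 and numpy 2.4.6 under Python 3.11.15, with lowess from statsmodels 0.14.6 and plots from matplotlib 3.10.9. The steps were checked on simulated data. There was no test, as each group is 1 array. The 8 genes and the 14 other lists were chosen with earlier results of these data known. Named are the 8 genes and, from each list, up to 4 genes with the largest absolute log2 ratios whose higher array reached the median of all values; other names are marked or belong to the marker lists. In the lists, 15 genes were matched to no probe set with a single gene and are not analysed here. Alternatives were other thresholds (1.5-fold and 3-fold), low-signal filters, centring, lowess correction (span 0.3), other choices of a gene's value and leaving out less specific probe sets.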

Additional observations from a re-analysis of the deposited data

How the results depend on the processing

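Of 9 alternative settings, 7 bear on log2 ratios and 2 on the threshold only. Over those 7, *Tdp2* kept a log2 ratio between 0.61 and 0.62 and *Tdp1* of 0.41. Both have a single probe set and so could not move with the choice of probe set. The low-signal filters leave a gene's ratio as it is, and centring took 0.0017 from every ratio. Lowess correction was thus the only setting that could have moved either gene by more. *Top2b* ranged from -0.40 to -0.20, *Top1* from -0.24 to -0.11 and *Top2a* from -0.18 to -0.07, all below 0. *Top3b* did not keep its direction, with -0.34 as the mean of its probe sets, -1.14 at its most changed probe set and -0.059 without the _s_at and _x_at probe sets, against 0.19. The count of the 8 genes past the threshold was 0 at 2-fold, 1 at 1.5-fold (*Tdp2*) and 1 when each gene took its most changed probe set (*Top3b*). In the function lists beside them, the count of 0 became 2 at 1.5-fold and 1 with the most changed probe sets, which also put the median of the chromosome structure genes at -0.28. Of 137 values under these settings, 129 stayed within the SD between probe sets or within 1.5 times the count. Many of the 137 could not have moved, as a single probe set leaves no choice and stricter rules cannot raise a count of 0. The tally is therefore no measure of how robust the values are. No paired analysis was possible because each group has 1 array. Array number limits every value, and signals below the 25th percentile may not exceed background.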
